A study of Mus musculus with 12 samples.

Results

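The genes described here are 7 of the urea cycle (*Nags*, *Cps1*, *Otc*, *Ass1*, *Asl*, *Arg1* and the carrier *Slc25a15*) and 3 that start the breakdown of glutamine, histidine and serine in periportal hepatocytes (*Gls2*, *Hal* and *Sds*). They were taken by gene symbol, and all 10 were found among the 24532 genes of the deposited table. All 10 passed the filter on low counts, as did 14038 genes in total. RNA-seq of polyadenylated RNA was carried out on whole livers of male C57BL/6 mice, 3 livers in each of 4 groups. WT mice were *Ahr* fl/fl littermates without a Cre gene. *Ahr* HKO mice, named ALKO in the labels, were *Ahr* fl/fl with *Alb-Cre*, which deletes the floxed second exon of *Ahr* in hepatocytes, so other liver cells keep the gene. Both genotypes therefore carry the floxed alleles. From 10 to 12 weeks of age, mice of both genotypes received for 5 weeks either the Lieber-DeCarli liquid diet, with ethanol at 5% of the volume and 36% of the calories, or a control liquid diet of the same calories without ethanol. The paper states that the livers sequenced were picked at random within each group, but it lists only 3 larger group sizes for the 4 groups.

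The urea cycle turns ammonia, which is toxic, into urea, and it runs mainly in the hepatocytes around the portal vein, where blood from the gut enters the lobule. Carbamoyl phosphate is made in the mitochondria and joined to ornithine, and the later steps take place in the cytosol, from which ornithine is carried back. Glutaminase 2, histidine ammonia lyase and serine dehydratase release ammonia from amino acids in the same cells and thereby feed the cycle. AhR is a ligand-activated transcription factor best known for inducing enzymes that metabolize foreign compounds.

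The libraries held 46306518 to 74336255 reads counted on genes, and in each the closest library was of its own group. *Ahr* itself was at 18.3 ± 1.79 CPM (read counts scaled to library size; SD, n = 3) in WT on the control diet, 24.9 ± 5.02 in WT on ethanol, 56.7 ± 13.4 in *Ahr* HKO on the control diet and 32.9 ± 8.55 in *Ahr* HKO on ethanol. A count over the whole gene cannot show the loss of a single exon, so the groups are given as labelled. *Cyp1a2*, a target gene of AhR, was lower in *Ahr* HKO than in WT on the control diet (log2 fold change (FC) -1.67, SE 0.40, adjusted *P* = 0.0197) and on ethanol (log2 FC -0.73, SE 0.12, adjusted *P* = 0.0433). It was higher on ethanol in both genotypes, with means of 490.3 and 1088 CPM on the control and ethanol diets in WT (log2 FC 1.16, SE 0.18, adjusted *P* = 0.0137) and 154 and 657 CPM in *Ahr* HKO (log2 FC 2.09, SE 0.39, adjusted *P* = 0.00884). The 7 hepatocyte markers in the table, such as *Alb*, summed to 93774 to 144115 CPM over the 12 livers.

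The 10 genes together took 0.483% to 0.879% of the reads of a library. Levels can be compared between genes only per transcript length, as FPKM. In WT on the control diet, *Cps1*, which makes carbamoyl phosphate and commits ammonia to the cycle, was at 626 ± 134 FPKM (SD, n = 3). *Arg1*, which splits arginine into urea and ornithine, was at 578 ± 78.7 FPKM, and the livers of these 2 genes overlapped. *Asl*, which cleaves argininosuccinate to arginine, followed at 218 ± 38.9 FPKM and *Otc*, which makes citrulline, at 152 ± 20.5 FPKM, each apart from the gene above it. *Sds* (141 ± 60.6 FPKM), *Gls2* (117 ± 24.8), *Hal* (87.2 ± 29.4) and *Slc25a15* (68.8 ± 3.62), the mitochondrial ornithine carrier, each overlapped the gene above it. *Nags*, whose product N-acetylglutamate activates CPS1, was at 28.8 ± 2.63 FPKM, below every liver of *Slc25a15*. *Ass1*, which joins citrulline and aspartate, was listed at 1.23 ± 0.39 FPKM. On ethanol *Arg1* stood above *Cps1* in level in both genotypes, without overlap of the livers (587 ± 113 against 442 ± 41.9 FPKM in WT, and 677 ± 14.9 against 530 ± 24.0 FPKM in *Ahr* HKO).

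**Figure D1:**
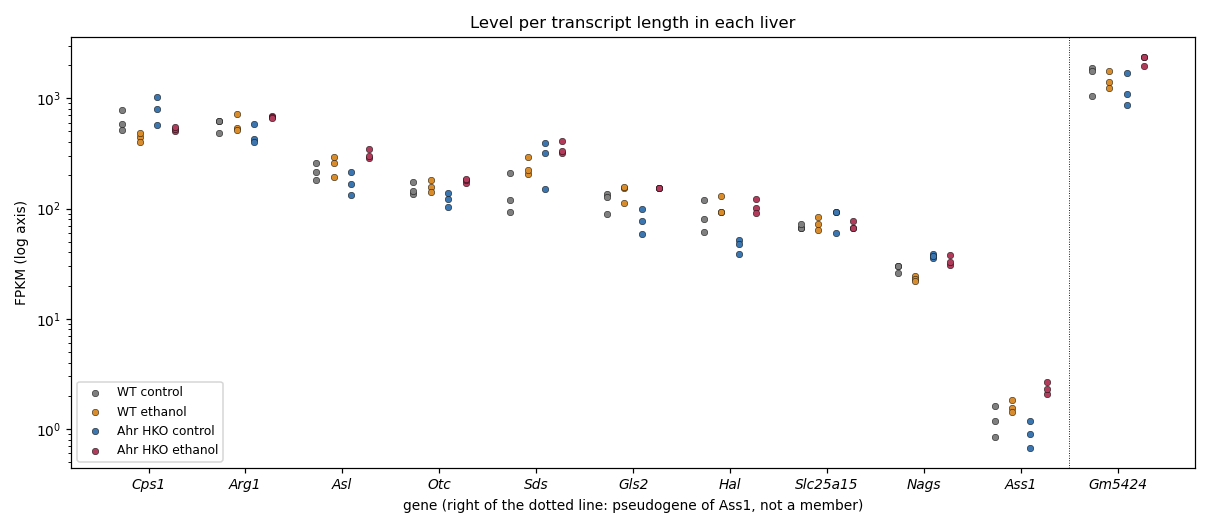
Level per transcript length of the 10 genes and of *Gm5424*, as FPKM on a log axis, with 1 point per liver and a colour per group. *Cps1* and *Arg1* are the highest of the 10 in every group, and *Ass1* lies at 0.669 to 2.68 FPKM while *Gm5424* lies at 876 to 2380 FPKM.

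The value of *Ass1* cannot be read as the level of its mRNA. The gene lies on chromosome 2 (chr2:31470270-31520670, plus strand, GRCm38), and its transcript of 1696 bases in 16 exons matched a processed pseudogene, *Gm5424*, over 1240 bases with 99.5% identity and 6 mismatches. *Gm5424* is a single exon on chromosome 10 (chr10:62071022-62072571, plus strand). *Ass1* was listed with 70 to 263 reads per library and *Gm5424* with 87086 to 283249. Of the reads on either gene, *Ass1* therefore held between 0.0701% (95% Wilson interval 0.0576 to 0.0853%) in WT-con liver 3 and 0.123% (0.109 to 0.138%) in *Ahr* HKO ethanol liver 2. The intervals cover counting error only.

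A read that lies within the matching bases cannot be assigned with certainty, so *Ass1* is also given below with the reads of both rows summed, a choice made after the values were seen. Of the other 9 genes, *Nags* overlaps the antisense gene *Gm11586* over 445 identical bases. The libraries were stranded, but whether strand was used in counting is not given in the sources used here. *Sds* shares 365 bases with *Plbd2* at 99.7% identity, and *Hal* has only partial matches, the longest of 278 bases at 78.1% identity. *Cps1*, *Otc*, *Asl*, *Arg1*, *Slc25a15* and *Gls2* matched no other gene.

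The effect of the ethanol diet was asked first in WT livers. *Nags* was lower on ethanol, and none of the other 9 genes passed the test. *Nags* was at 67.6, 58.4 and 67.5 CPM in the 3 control livers and at 52.0, 42.3 and 44.0 CPM in the 3 ethanol livers. Each ethanol liver was below each control liver (log2 FC -0.47, SE 0.11, adjusted *P* = 0.0389). *Cps1* was at 4555, 3096 and 3405 CPM on the control diet and at 2484, 2357 and 2102 CPM on ethanol. Its groups did not overlap either, but the difference missed the threshold (log2 FC -0.66, SE 0.18, adjusted *P* = 0.0682). Both act at the start of the cycle, and their differences were the most negative of the 10, while the other 8 overlapped between diets, with log2 FCs from -0.12 for *Arg1* to 0.63 for *Sds*.

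A gene was counted as called at an adjusted *P* under 0.05 in edgeR's quasi-likelihood test. In WT 1 of the 10 genes was called, lower, and none higher. Of all tested genes 9.47% were called, 4.84% higher and 4.63% lower. Groups did not overlap for 2 of the 10, both lower, against 32.9% of all tested genes (16.2% higher, 16.6% lower). The median log2 FC was -0.0081 over the 10 and 0.0269 over all tested genes. With the reads of *Gm5424* added, the log2 FC of *Ass1* turned from 0.24 (SE 0.28) to -0.25 (SE 0.26), called in neither case. The call of *Nags* was lost without WT-con liver 1 (adjusted *P* = 0.123), 2 (0.0709) or 3 (0.124) and without WT-EtOH liver 2 (0.101) or 3 (0.0981), and DESeq2 also called *Cps1* (0.00192).

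**Figure D2:**
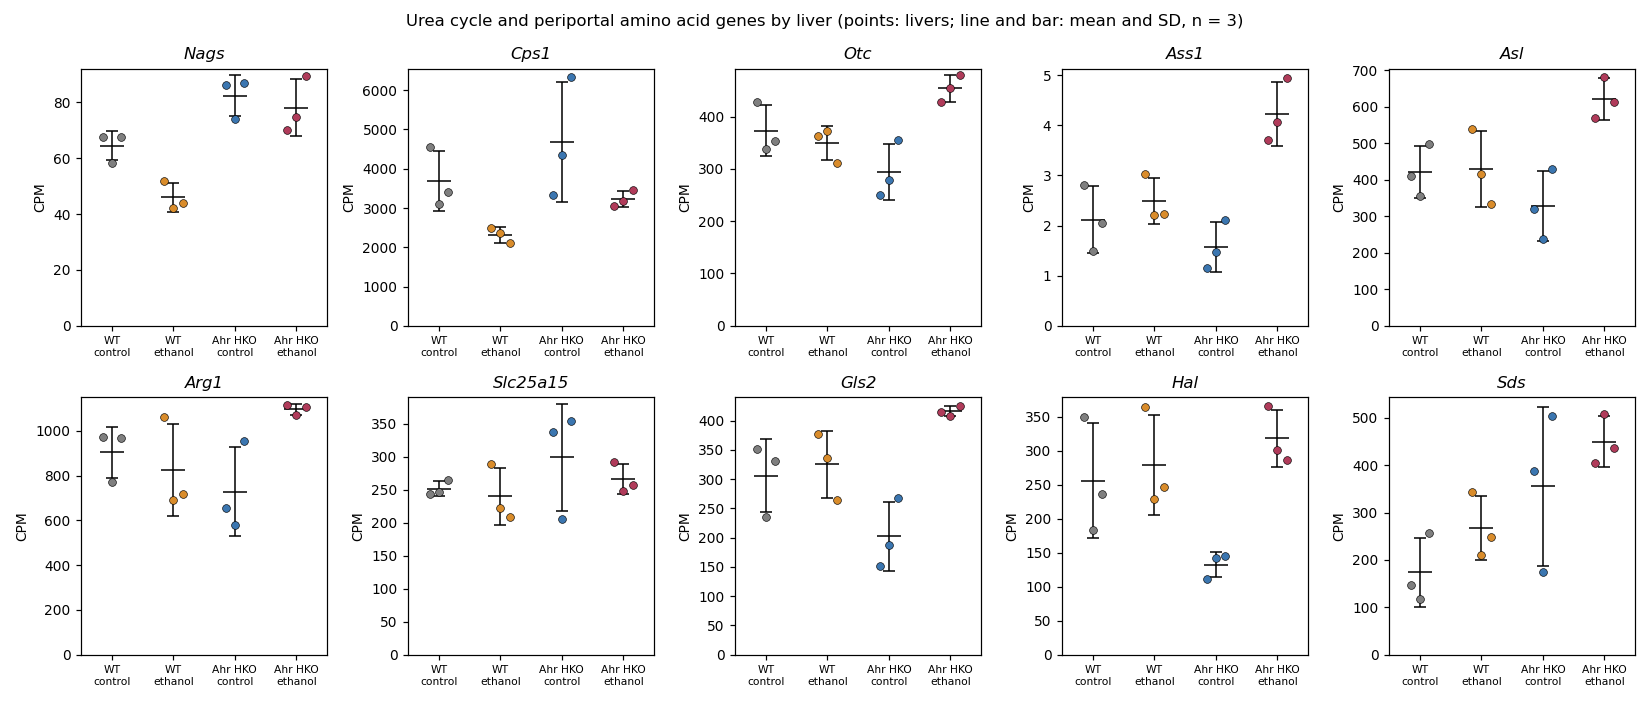
CPM of each of the 10 genes, with 1 point per liver, in WT on the control diet, WT on ethanol, *Ahr* HKO on the control diet and *Ahr* HKO on ethanol. The horizontal line and bar give the mean and SD (n = 3). In *Otc*, *Ass1*, *Asl*, *Arg1* and *Gls2* the *Ahr* HKO livers on ethanol lie above all *Ahr* HKO livers on the control diet and all WT livers on ethanol, while *Nags* is lowest in WT on ethanol.

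In *Ahr* HKO livers the ethanol diet went with higher listed values of 5 of the 10 genes: the citrulline-forming enzyme *Otc*, the cytosolic enzymes *Ass1* and *Asl*, and the ammonia-releasing *Gls2* and *Hal*. None of the 10 was called lower. *Otc* was at 250, 279 and 354 CPM on the control diet and at 428, 456 and 479 CPM on ethanol. Its groups were apart (log2 FC 0.62, SE 0.16, adjusted *P* = 0.0243). *Ass1* was listed at 1.14, 1.47 and 2.12 CPM on the control diet and at 3.70, 4.06 and 4.94 CPM on ethanol (log2 FC 1.43, SE 0.26, adjusted *P* = 0.00884). With the reads of *Gm5424* added, the means were 2005 ± 785 and 3824 ± 448 CPM (SD, n = 3), and the difference was still called (log2 FC 0.93, SE 0.28, adjusted *P* = 0.0448). The row of *Ass1* was thus 2.69-fold higher on ethanol and the sum 1.90-fold. Nearly all reads of the sum are listed on *Gm5424*, which alone gave a log2 FC of 0.93 (SE 0.28). The sum is therefore not a second measure of *Ass1*, and neither value can be read as the level of its mRNA.

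*Asl* was at 320, 237 and 428 CPM on the control diet and at 569, 682 and 612 CPM on ethanol (log2 FC 0.92, SE 0.23, adjusted *P* = 0.0224). *Gls2* was at 151, 187 and 267 CPM and at 414, 408 and 425 CPM (log2 FC 1.04, SE 0.21, adjusted *P* = 0.0116). The ethanol livers lay closer together than the control livers for this gene, with SDs of 8.77 and 59.5 CPM. *Hal* was at 111, 142 and 145 CPM and at 366, 302 and 287 CPM (log2 FC 1.26, SE 0.16, adjusted *P* = 0.00285). All 3 genes had each ethanol liver above each control liver. *Arg1* was at 653, 580 and 955 CPM on the control diet and at 1114, 1070 and 1106 CPM on ethanol. Its groups were apart too, yet it missed the threshold (log2 FC 0.59, SE 0.21, adjusted *P* = 0.067).

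The enzymes at the start of the cycle did not pass the test between diets. *Nags* was at 86.3, 73.9 and 86.8 CPM on the control diet and at 70.2, 74.8 and 89.5 CPM on ethanol (log2 FC -0.08, SE 0.13, adjusted *P* = 0.694). *Cps1* was at 3330, 4352 and 6340 CPM and at 3052, 3187 and 3461 CPM (log2 FC -0.53, SE 0.25, adjusted *P* = 0.142). The diets overlapped in both genes. *Slc25a15* (log2 FC -0.17, SE 0.22) and *Sds* (0.34, SE 0.36) overlapped between diets as well.

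The 5 called genes compare with 30.8% of all tested genes called in *Ahr* HKO livers between diets, 14.9% higher and 15.9% lower. The groups were apart for 6 of the 10, all higher on ethanol, against 49.8% of all tested genes, 24.5% higher and 25.3% lower. The median log2 FC was 0.61 over the 10 and -0.02 over all tested genes. *Hal*, *Ass1* on its own row and *Gls2* were called in 6 of 6 fits that left out 1 library. The sum of *Ass1* and *Gm5424* was not fitted with a library left out. The call of *Otc* was lost without *Ahr* HKO control liver 1 (adjusted *P* = 0.0703) or 2 (0.0660) and without *Ahr* HKO ethanol liver 2 (0.0648) or 3 (0.0758), and that of *Asl* without control liver 1 (0.0661) and without ethanol liver 2 (0.0649) or 3 (0.0563), while *Arg1* was called without control liver 3 (0.00836).

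Other cell types differed between the same groups of livers, where 14.9% of all tested genes were called higher and 15.9% lower. All 8 markers of Kupffer cells and macrophages, such as *Adgre1* (log2 FC -2.07, SE 0.41, adjusted *P* = 0.0108) and *Timd4* (log2 FC -2.04, SE 0.35, adjusted *P* = 0.00714), were lower in *Ahr* HKO livers on ethanol than on the control diet. Their summed level was 305 to 861 CPM on the control diet and 190.0 to 239 CPM on ethanol, and no marker was at 0 in either group. Of the sinusoidal endothelial markers 4 of 8 were lower (349 to 375 against 244 to 276 CPM summed), and of the lymphocyte and neutrophil markers 3 of 7 tested (17.9 to 31.6 against 8.29 to 10.2 CPM summed, with *Ly6g* at 0 on ethanol). Of the stellate cell and fibroblast markers 1 of 8 was higher and 1 lower, and of the cholangiocyte markers 1 of 5 tested was lower, with sums of 44.5 to 476 CPM on the control diet and 37.1 to 67.1 CPM on ethanol. The hepatocyte markers summed to 95822 to 144115 CPM on the control diet and to 110762 to 119880 CPM on ethanol, with overlap. The part of cell composition in the differences of the 10 genes was not tested, and in whole liver more or fewer cells of a type cannot be told apart from more or less RNA per cell.

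Promoters were examined because genes of the set were higher together in *Ahr* HKO livers on ethanol. The RefSeq table held 6 entries for 5 of the 10 genes, and the 250 bases before the start of the entry are shown for the 4 genes with an entry that were called in any comparison. The letters searched on both strands were GCGTG, the core of the AhR response element, TGACG and TGACGTCA, the short and full cyclic AMP response element, TTGCNNAA, a C/EBP type site, and TATAAA. The shorter TGACG lies within TGACGTCA, so any full match counts for both. Matches are in capitals.
Ass1, chr2:31470020-31470269, plus strand: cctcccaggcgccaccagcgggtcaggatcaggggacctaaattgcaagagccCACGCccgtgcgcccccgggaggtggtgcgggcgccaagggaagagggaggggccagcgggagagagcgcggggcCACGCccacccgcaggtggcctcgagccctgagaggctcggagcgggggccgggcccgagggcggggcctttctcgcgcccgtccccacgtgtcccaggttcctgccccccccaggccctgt
Hal, chr10:93488518-93488767, plus strand: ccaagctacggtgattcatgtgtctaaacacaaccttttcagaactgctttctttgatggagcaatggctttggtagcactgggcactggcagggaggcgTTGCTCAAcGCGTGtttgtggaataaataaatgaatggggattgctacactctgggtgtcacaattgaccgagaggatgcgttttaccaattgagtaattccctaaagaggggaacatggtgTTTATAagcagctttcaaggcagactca
Nags, chr11:102145263-102145512, plus strand: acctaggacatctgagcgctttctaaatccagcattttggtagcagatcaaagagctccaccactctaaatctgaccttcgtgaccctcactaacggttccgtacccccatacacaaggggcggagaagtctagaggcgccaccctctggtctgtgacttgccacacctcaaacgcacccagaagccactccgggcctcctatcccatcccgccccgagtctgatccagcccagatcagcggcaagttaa
Otc, chrX:10252055-10252304, plus strand: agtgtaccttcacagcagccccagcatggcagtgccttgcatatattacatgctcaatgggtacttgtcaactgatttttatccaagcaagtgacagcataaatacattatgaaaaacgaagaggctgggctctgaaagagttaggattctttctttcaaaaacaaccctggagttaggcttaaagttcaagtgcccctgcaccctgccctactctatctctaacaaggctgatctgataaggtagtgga

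The positions are those of RefSeq on GRCm38.p6. The window of *Otc* ends at 10252304, past the start of the gene at 10252230, so its last bases lie within the gene. *Slc25a15*, which has an entry but was not called and is not shown, held GCGTG at 1 place. The window of *Ass1* held GCGTG at 2 places, both on the minus strand, where they read CACGC, and that of *Hal* held GCGTG, TTGCNNAA and, on the minus strand, TATAAA at 1 place each. Of the 32851 promoter windows in the table, 28.2% held GCGTG, 17.8% TGACG, 1.55% TGACGTCA, 9.56% TTGCNNAA and 12.4% TATAAA. The windows of *Nags* and *Otc* held none of the 5.

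The genotypes were next compared on the control diet. *Hal*, which converts histidine to urocanate, was lower in *Ahr* HKO, and *Nags* was higher. *Hal* was at 349, 183 and 236 CPM in WT and at 111, 142 and 145 CPM in *Ahr* HKO, so that each *Ahr* HKO liver was below each WT liver (log2 FC -0.94, SE 0.24, adjusted *P* = 0.0235). *Nags* was at 67.6, 58.4 and 67.5 CPM in WT and at 86.3, 73.9 and 86.8 CPM in *Ahr* HKO, with each *Ahr* HKO liver above each WT liver (log2 FC 0.36, SE 0.11, adjusted *P* = 0.0479). Neither *Gls2* (log2 FC -0.59, SE 0.24, adjusted *P* = 0.107) nor *Sds* (1.04, SE 0.42, adjusted *P* = 0.107) passed the test, although DESeq2 called *Gls2* (adjusted *P* = 0.0443). *Sds* varied widely between livers, at 387, 174 and 503 CPM in the *Ahr* HKO livers and 148, 117 and 257 CPM in the WT livers.

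Of the 10 genes, 1 was called higher and 1 lower, and of all tested genes 29.6%, 15.4% higher and 14.2% lower. The same 2 genes were those whose groups did not overlap, against 47.3% of all tested genes, 23.2% higher and 24.1% lower. The median log2 FC was -0.32 over the 10 and -0.001 over all tested genes. The call of *Hal* was lost without WT-con liver 3 (adjusted *P* = 0.0512) and without *Ahr* HKO control liver 1 (0.0694) or 2 (0.0518), and that of *Nags* without WT-con liver 1 (0.0920), 2 (0.155) or 3 (0.0927) and without *Ahr* HKO control liver 1 (0.114) or 3 (0.101). Without *Ahr* HKO control liver 3, *Otc* (log2 FC -0.50, adjusted *P* = 0.0466), *Arg1* (-0.55, 0.0404) and *Gls2* (-0.85, 0.0265) were called lower, and without *Ahr* HKO control liver 2, *Slc25a15* (0.47, 0.0240) and *Sds* (1.36, 0.0301) were called higher.

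On the ethanol diet all 10 genes had a higher fitted level in *Ahr* HKO than in WT, but *Nags* alone was called. *Nags* was at 52.0, 42.3 and 44.0 CPM in WT and at 70.2, 74.8 and 89.5 CPM in *Ahr* HKO (log2 FC 0.76, SE 0.13, adjusted *P* = 0.0484). *Cps1*, at 2484, 2357 and 2102 CPM in WT and 3052, 3187 and 3461 CPM in *Ahr* HKO, differed by a log2 FC of 0.48 (SE 0.12) with an adjusted *P* of 0.105. *Sds*, at 342, 211 and 247 CPM in WT and 405, 509 and 435 CPM in *Ahr* HKO, differed by 0.76 (log2 FC, SE 0.19) with an adjusted *P* of 0.0994. In these 3 genes each *Ahr* HKO liver was above each WT liver, as was so in *Otc* (log2 FC 0.38, SE 0.12), *Ass1* (0.77, SE 0.21), *Asl* (0.54, SE 0.18), *Arg1* (0.42, SE 0.17) and *Gls2* (0.35, SE 0.14). *Slc25a15* and *Hal* overlapped between genotypes. In the same livers the Kupffer and macrophage markers summed to 309 to 778 CPM in WT and 190.0 to 239 CPM in *Ahr* HKO (0 of 8 called, median log2 FC -1.16), and the lymphocyte and neutrophil markers to 13.2 to 21.0 and 8.29 to 10.2 CPM (0 of 7 called, median -1.01). Their part in the differences of the 10 genes was not tested.

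The comparison called few genes in all: 1.1% of those tested, 0.712% higher and 0.392% lower, against 1 of the 10. The groups were apart for 8 of the 10, all higher in *Ahr* HKO, where 27.9% of all tested genes were apart, 13.7% higher and 14.2% lower. The median log2 FC was 0.45 over the 10 and -0.01 over all tested genes. The call of *Nags* was lost without any 1 of the 6 livers, with adjusted *P* values of 0.0964, 0.132 and 0.0783 without WT-EtOH liver 1, 2 or 3 and 0.0577, 0.125 and 0.173 without *Ahr* HKO ethanol liver 1, 2 or 3. With limma on log2(FPKM + 1), where the median over all tested genes was -0.13, the log2 FCs of *Slc25a15* and *Hal* fell below 0 (-0.06 and -0.01), and DESeq2 called 5 of the 10.

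**Figure D3:**
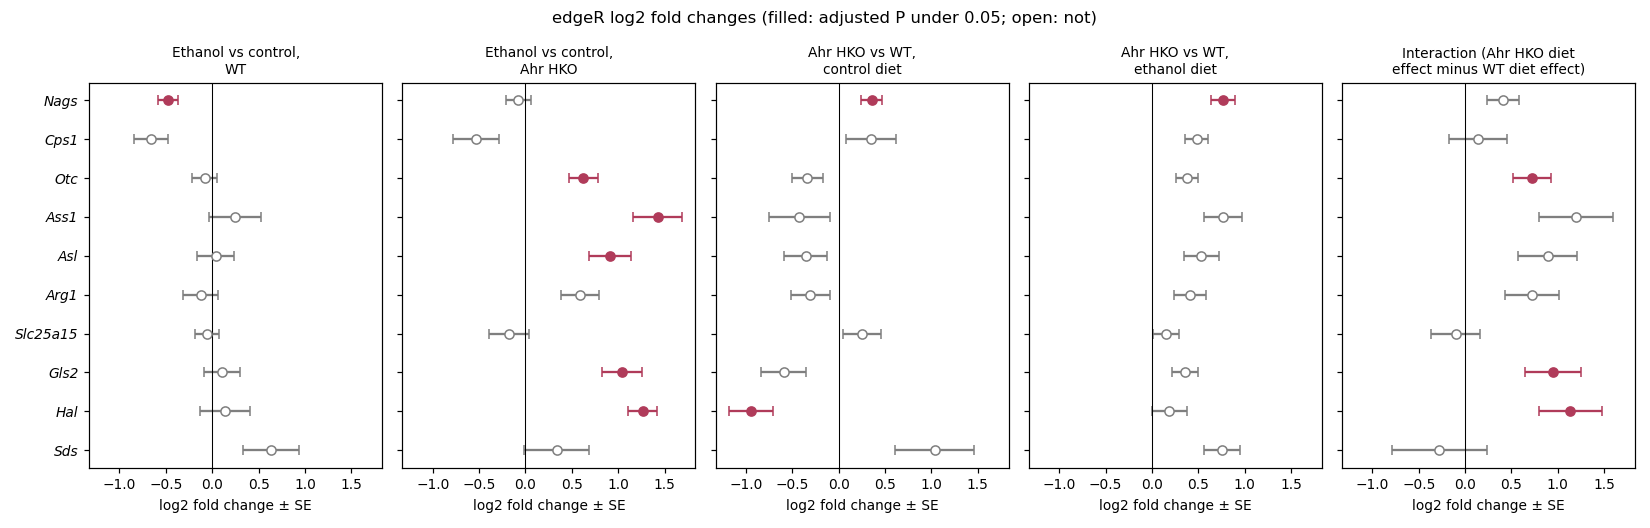
Fitted log2 FC of the 10 genes with its SE (bars) in the 4 comparisons of groups and in the interaction, which is the diet effect in *Ahr* HKO minus that in WT. Filled points have an adjusted *P* under 0.05. The largest values lie with ethanol in *Ahr* HKO (1.43 for *Ass1*, 1.26 for *Hal*), and all 10 points lie right of 0 between genotypes on ethanol.

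Whether the diet effect differed between the genotypes was tested with all 12 libraries in an interaction term. It did for *Otc*, *Gls2* and *Hal*, in each of which the diet effect was more positive in *Ahr* HKO livers than in WT livers. On ethanol none of these genes was called between genotypes (adjusted *P* = 0.137, 0.215 and 0.596 in edgeR). The diet effect on *Otc* was -0.08 in WT and 0.62 in *Ahr* HKO, and the difference was 0.72 (log2, SE 0.20, adjusted *P* = 0.0283). For *Gls2* the effects were 0.10 and 1.04 and the difference 0.95 (SE 0.30, adjusted *P* = 0.0430). For *Hal* they were 0.14 and 1.26 and the difference 1.13 (SE 0.34, adjusted *P* = 0.0340). *Gls2* had a lower fitted level in *Ahr* HKO on the control diet but was not called there (log2 FC -0.59, SE 0.24, adjusted *P* = 0.107). *Hal* was lower in *Ahr* HKO on the control diet, and its ranges overlapped between genotypes on ethanol, 229 to 364 CPM in WT and 287 to 366 CPM in *Ahr* HKO. The difference was of like size for *Ass1* (1.19, SE 0.40, adjusted *P* = 0.0505; 1.19, SE 0.41, adjusted *P* = 0.0571 with the reads of *Gm5424*), *Asl* (0.89, SE 0.32, adjusted *P* = 0.067) and *Arg1* (0.72, SE 0.29, adjusted *P* = 0.0997), which were not called. For *Nags* it was 0.41 (SE 0.17, adjusted *P* = 0.109), and *Cps1* (0.14, SE 0.31), *Slc25a15* (-0.10, SE 0.27) and *Sds* (-0.28, SE 0.51) had differences within 1 SE of 0.

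In the interaction 3 of the 10 genes were called, all positive, against 22.3% of all tested genes, 11.2% positive and 11.1% negative. The median was 0.72 over the 10 and -0.03 over all tested genes. The Kupffer and macrophage markers were called negative in 5 of 8, and the part of this in the 3 calls was not tested. *Otc* was no longer called without WT-con liver 1 (adjusted *P* = 0.0676), WT-EtOH liver 3 (0.0569), *Ahr* HKO control liver 1 (0.0711) or 2 (0.0542), or *Ahr* HKO ethanol liver 2 (0.0517) or 3 (0.0652). *Hal* was lost without WT-con liver 1 (0.0730) or 3 (0.0508), WT-EtOH liver 2 (0.0741) or 3 (0.0671), *Ahr* HKO control liver 1 (0.0720), or *Ahr* HKO ethanol liver 1 (0.0738) or 2 (0.0513), and *Gls2* without WT-con liver 1 (0.0965) or 3 (0.0880), WT-EtOH liver 2 (0.0724) or 3 (0.0839), *Ahr* HKO control liver 1 (0.0891) or 2 (0.0813), or any ethanol liver of *Ahr* HKO (0.0680 to 0.0815). *Ass1*, on its own row, was called without WT-con liver 2 (0.0351), WT-EtOH liver 1 (0.0422) or *Ahr* HKO control liver 3 (0.0246), and *Asl* and *Arg1* without WT-EtOH liver 1 (0.0337 and 0.0306) or *Ahr* HKO control liver 3 (0.0241 and 0.0251).

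The enzymes that follow HAL in histidine breakdown were read beside it. *Uroc1*, *Amdhd1* and *Ftcd*, which carry urocanate on to glutamate and one-carbon units, were all called higher on ethanol in *Ahr* HKO (3 of 3, median log2 FC 1.03). Of all tested genes 14.9% were called higher there. *Amdhd1* was at 96.7, 125 and 139 CPM on the control diet and 268, 265 and 238 CPM on ethanol (log2 FC 1.10, SE 0.16, adjusted *P* = 0.00405). *Ftcd* was at 282, 299 and 307 CPM and at 642, 564 and 611 CPM (log2 FC 1.03, SE 0.11, adjusted *P* = 0.00234), and *Uroc1* at 244, 259 and 344 CPM and at 553, 455 and 532 CPM (log2 FC 0.86, SE 0.17, adjusted *P* = 0.0108). On the control diet *Amdhd1* (log2 FC -0.81, SE 0.18, adjusted *P* = 0.0155) and *Ftcd* (-0.67, SE 0.11, adjusted *P* = 0.00462) were lower in *Ahr* HKO than in WT, as *Hal* was. Both were called in the interaction as well, at 0.97 and 0.93. In WT none of the 3 was called between diets.

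**Figure D4:**
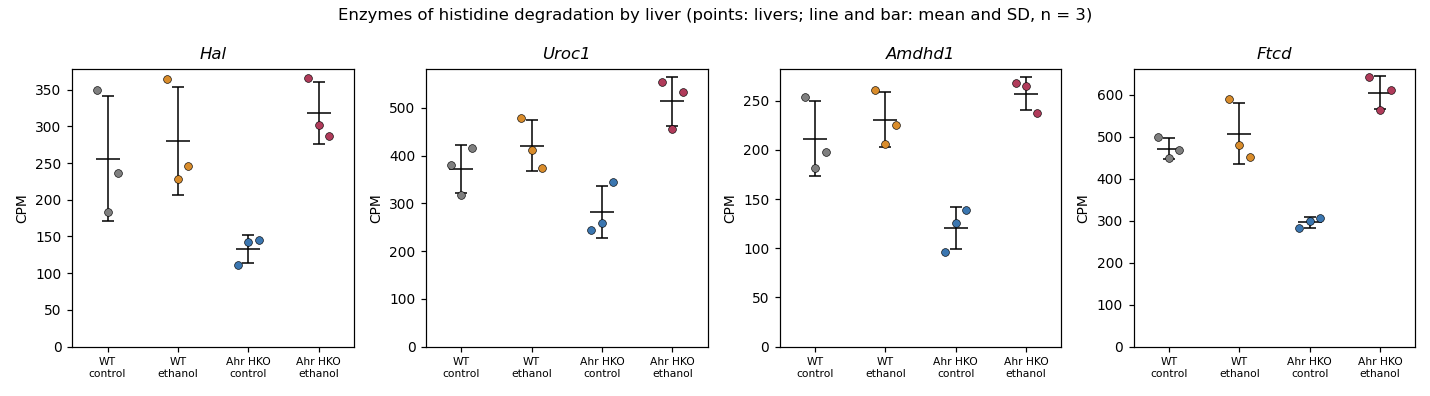
CPM of *Hal* and of the 3 enzymes after it, with 1 point per liver and the mean and SD (n = 3) in 4 groups. In all 4 panels the 3 *Ahr* HKO livers on the control diet lie below the 3 *Ahr* HKO livers on ethanol, and in *Hal*, *Amdhd1* and *Ftcd* also below all WT livers.

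Genes that deliver substrates to the cycle were taken as lists. Of 13 tested genes of ammonia, glutamine and glutamate handling, 4 were higher and none lower on ethanol in *Ahr* HKO (median log2 FC 0.14), a share near the 30.8% called of all tested genes. The 4 included *Car5a*, the mitochondrial carbonic anhydrase that supplies bicarbonate to CPS1 (1.27, SE 0.20, adjusted *P* = 0.00552), the alanine aminotransferase *Gpt* (0.79, SE 0.21, adjusted *P* = 0.0273) and the amino acid transporter *Slc38a4* (0.64, SE 0.14, adjusted *P* = 0.0133). *Car5a* was lower in *Ahr* HKO than in WT on the control diet (-1.31, SE 0.10, adjusted *P* = 0.000788), and so was *Slc38a4* (-1.01, SE 0.16, adjusted *P* = 0.00439). In WT on ethanol, 2 of the 13 were called, both higher: the ammonium transporter *Rhbg* (2.12, SE 0.26, adjusted *P* = 0.0059) and *Slc38a2* (0.91, SE 0.21, adjusted *P* = 0.0409). Of all tested genes 9.47% were called in WT. *Rhbg* was also the largest of the 4 differences called on ethanol in *Ahr* HKO (1.56, SE 0.33, adjusted *P* = 0.013).

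Of 15 genes of arginine, ornithine, aspartate and proline handling, 5 were higher and 1 lower on ethanol in *Ahr* HKO (median 0.25), where 14.9% of all tested genes were higher and 15.9% lower, and none was called in WT. They included *Slc25a2*, a paralogue of the ornithine carrier (1.75, SE 0.47, adjusted *P* = 0.0309), which was barely detected at means of 0.22 and 0.73 CPM on the control and ethanol diets, and *Prodh*, proline dehydrogenase (1.49, SE 0.20, adjusted *P* = 0.00336). The cationic amino acid transporter *Slc7a2* was higher as well (1.13, SE 0.25, adjusted *P* = 0.0148), at means of 299 and 653 CPM. The gene called lower was *Arg2*, the mitochondrial arginase (-2.07, SE 0.44, adjusted *P* = 0.0130), also barely detected at means of 0.83 and 0.20 CPM. *Slc25a13*, the aspartate and glutamate carrier that supplies aspartate to ASS1, was lower in *Ahr* HKO on the control diet (-0.51, SE 0.11, adjusted *P* = 0.0131) and positive in the interaction (0.68, SE 0.15, adjusted *P* = 0.00796).

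Other routes of amino acid breakdown were read in the same way. Of 13 genes of branched-chain and lysine degradation, 9 were called positive in the interaction (median 0.78), where 11.2% of all tested genes were, led by *Aadat* (2.04, SE 0.22, adjusted *P* = 0.000322) and *Ivd* (1.35, SE 0.23, adjusted *P* = 0.00296). Both were called lower on ethanol in WT (-1.62, SE 0.15, adjusted *P* = 0.00212, and -0.95, SE 0.16, adjusted *P* = 0.0152) and neither was called between diets in *Ahr* HKO, with means of 57.8 and 76.4 CPM for *Aadat* and 147 and 191 CPM for *Ivd* on the control and ethanol diets. *Aadat* was already lower in *Ahr* HKO than in WT on the control diet (-1.11, SE 0.13, adjusted *P* = 0.00165), where its mean in WT was 125 CPM. Of 8 genes of phenylalanine and tyrosine degradation, 5 were positive (median 0.72), led by *Qdpr* (1.18, SE 0.24, adjusted *P* = 0.00696). Within that list *Tat*, tyrosine aminotransferase, was higher on ethanol in WT (1.25, SE 0.26, adjusted *P* = 0.0287) and higher in *Ahr* HKO than in WT on both diets (1.72, adjusted *P* = 0.0213 on the control diet, and 1.63, adjusted *P* = 0.0399 on ethanol). Of 10 tested genes of serine, threonine and glycine degradation, 1 was called on ethanol in *Ahr* HKO, where 30.8% of all tested genes were. It was *Shmt2*, which was higher (0.84, SE 0.13, adjusted *P* = 0.00573). On the control diet 1 was higher and 3 were lower in *Ahr* HKO than in WT, where 15.4% of all tested genes were higher and 14.2% lower. The gene higher there was *Sdsl*, a paralogue of *Sds* (1.28, SE 0.25, adjusted *P* = 0.00908). The 3 lower there were *Amt* (-0.84, SE 0.14, adjusted *P* = 0.00573), *Shmt2* (-0.79, SE 0.10, adjusted *P* = 0.00231) and *Shmt1* (-0.49, SE 0.15, adjusted *P* = 0.0478). Of 15 regulators of amino acid catabolism, 4 were higher and 1 lower on ethanol in *Ahr* HKO, the latter *Nr1h4*, named after its value was seen, which is again near the 30.8% called of all tested genes. *Ppargc1a*, a coactivator of the fasting response, was higher (1.51, SE 0.15, adjusted *P* = 0.00182), as were *Klf15* (1.48, SE 0.35, adjusted *P* = 0.0186) and the mitochondrial deacetylase *Sirt3* (0.78, SE 0.11, adjusted *P* = 0.0041). *Ppargc1a* was also called higher on ethanol in WT (0.60, SE 0.14, adjusted *P* = 0.0417). On the control diet 3 of the 15 were higher and 4 lower in *Ahr* HKO than in WT, where 29.6% of all tested genes were called. The lower included *Ppargc1a* (-0.61, SE 0.17, adjusted *P* = 0.0351) and *Sirt3* (-0.85, SE 0.10, adjusted *P* = 0.00195).

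Markers of periportal hepatocytes outside the 10 genes were compared, since these genes mark the same zone. Of all tested genes 14.9% were called higher and 15.9% lower on ethanol in *Ahr* HKO, and 4.84% and 4.63% in WT. Of 9 markers, 5 were higher and 1 lower on ethanol in *Ahr* HKO (median log2 FC 1.31), the latter *Apof*, named after its value was seen, and 2 were higher and 1 lower in WT (median 0.58). Among them *Cyp2f2* was higher on ethanol in *Ahr* HKO (1.34, SE 0.15, adjusted *P* = 0.00234), and *Pck1*, the rate-limiting enzyme of gluconeogenesis, was higher on ethanol in both genotypes (1.53, SE 0.17, adjusted *P* = 0.00403 in WT, and 1.33, SE 0.28, adjusted *P* = 0.0131 in *Ahr* HKO). The 9 markers summed to 3512 to 3845 CPM in WT on the control diet, 5437 to 7118 in WT on ethanol, 3544 to 4985 in *Ahr* HKO on the control diet and 8631 to 9654 in *Ahr* HKO on ethanol. Of 12 pericentral markers, 2 were higher and none lower on ethanol in *Ahr* HKO (7064 to 11084 against 10433 to 12066 CPM summed). In WT 2 were higher and 3 lower, and the sum was 11112 to 11877 CPM on the control diet and 8250 to 9088 CPM on ethanol, without overlap. *Pck1* made up much of the periportal sums, with means of 1139 and 3248 CPM on the control and ethanol diets in WT and 2254 and 5676 CPM in *Ahr* HKO. *Cyp2e1* made up much of the pericentral sums, with means of 7345 and 4198 CPM in WT and 4940 and 6482 CPM in *Ahr* HKO. It was among the markers called lower in WT (-0.79, SE 0.15, adjusted *P* = 0.0213). The 2 pericentral markers higher in WT were *Rhbg* (means 10.6 and 45.6 CPM) and *Cyp1a2* (490 and 1088 CPM). The same 2 were those called higher in *Ahr* HKO, with means of 10.8 and 31.9 CPM for *Rhbg* and 154 and 657 CPM for *Cyp1a2*. In WT *Cdh1* was lower on ethanol (-1.15, SE 0.19, adjusted *P* = 0.0152; means 45.8 and 20.5 CPM), and *Cyp2f2* had means of 1099 and 984 CPM. The part of zonation in these values was not tested.

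For each of the 10 genes the gene outside the set with the nearest pattern was found by the root mean square (RMS) difference of centred log2 CPM over the 12 livers, among 11716 genes. *Hal* lay nearest to *Amdhd1*, a later enzyme of the same pathway (RMS 0.15 log2, where *Hal* itself varied by 0.55 about its mean). *Otc* lay nearest to *Gcdh*, of lysine breakdown (0.08), and *Arg1* to *Sdhb*, a subunit of succinate dehydrogenase (0.10). *Ass1* lay nearest to *Ces2a* (0.20), and *Gm5424* was the third nearest. For *Asl* it was *Gm4737* (0.16), for *Gls2* *Cyp4v3* (0.13), for *Nags* *Cdip1* (0.14), for *Cps1* *Mapkbp1* (0.15), for *Slc25a15* *Ptges2* (0.09) and for *Sds* *Slc25a51* (0.33). Within the 10 genes *Nags* and *Cps1* were each nearest to the other (0.28), as were *Otc* and *Arg1* (0.18), and *Sds*, with 0.55 to its nearest, stood farthest from the rest. About their own means *Nags* and *Cps1* varied by 0.35 and 0.42, not far above their distance, and *Otc* and *Arg1* by 0.27 and 0.32.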

How the data were processed

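The authors deposited, for 24532 genes of 12 livers, raw read counts, which carry no normalization, with FPKM and TPM. The deposited FPKM scale these to gene length and library size. The deposited TPM entered no result. Per the labels, reads were handled with FastQC 0.11.7, Trimmomatic 0.38, HISAT2 2.1.0, Bowtie2 2.3.4.1 and StringTie 1.3.4d on mm10. The handling of reads that match several genes is not given in the sources used here. Groups came from the labels, with 3 livers each.

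Counts were tested with edgeR 4.0.16 in R 4.3.3 (quasi-likelihood, TMM factors 0.925 to 1.16). filterByExpr kept 14038 genes. A comparison of 2 groups used only its 6 libraries, the interaction all 12, and *P* values were adjusted by Benjamini-Hochberg over all tested genes. CPM use TMM-scaled library sizes. The floor of 3 counts was 0.0425 to 0.0676 CPM. No pair of libraries was identical (0 of 66), and replicates differed by a chi-square of 68 to 310 per gene. *P* values measure the spread between livers. The scripts were tested on simulated data. Alternatives used DESeq2 1.42.0 and limma 3.58.1. Transcripts were matched with blastn 2.17.0 to GENCODE, and promoter sequences are RefSeq's. The aligned sequence of *Ass1* and *Gm5424* is not reported here. Same-numbered livers did not deviate together.

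The 10 genes, the lists and the tests were chosen with earlier results of these data known. All 10 were named. From each list at most 4 called genes per comparison with the largest change were named, and for each of the 10 genes the 1 nearest in pattern among genes with a mean of at least 1 CPM.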

Additional observations from a re-analysis of the deposited data

Results flagged for a closer look

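The diet effect differed between genotypes by the interaction test in edgeR for 3 of the 10 genes. Of all tested genes 22.3% were called in that test, 11.2% positive and 11.1% negative. The difference, *Ahr* HKO minus WT, was 0.72 on the log2 scale for *Otc*, 0.95 for *Gls2* and 1.13 for *Hal*. For each gene every *Ahr* HKO liver on ethanol was above every *Ahr* HKO liver on the control diet, as in 24.5% of all tested genes, and the WT diets overlapped. Each of the 3 calls was lost in some fits that left out 1 library, as given above. Over those fits the log2 difference ran from 0.61 to 0.87 for *Otc*, 0.77 to 1.21 for *Gls2* and 0.85 to 1.37 for *Hal*.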

How the results depend on the processing

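Of the genes called, *Hal*, *Ass1*, *Gls2* and *Asl* with ethanol in *Ahr* HKO were called under all 10 alternatives that kept every library, the sum of *Ass1* and *Gm5424* reads included, which was added after the data were seen. *Otc* was lost with limma on quantile-normalized log2(FPKM + 1) there (log2 FC 0.39, adjusted *P* = 0.0720) and in the interaction (0.0663), as was *Gls2* in the interaction (0.0713). The number of the 10 genes called for ethanol in WT went from 1 to 2 with DESeq2 and to 0 with the replicate block, with limma on log2(FPKM + 1) or log2(FPKM + 0.1), and with a minimum FC of 1.5. For the genotypes on the control diet it went from 2 to 3 with DESeq2, to 1 with upper-quartile scaling, the replicate block or the minimum FC, and to 0 with limma on log2(FPKM + 0.1). For the genotypes on ethanol it went from 1 to 5 with DESeq2 and to 0 with upper-quartile scaling, the replicate block, limma on quantile-normalized log2(FPKM + 1) and limma on log2(FPKM + 0.1). For the interaction it went from 3 to 5 with DESeq2, to 1 with the replicate block and to 0 with limma on log2(FPKM + 1) or log2(FPKM + 0.1). Calls over all 14038 tested genes moved too. For ethanol in WT they went from 1329 to 2335 with DESeq2, 517 with the replicate block and 949 with the minimum FC. They were 2037 with limma on log2(FPKM + 1) and 1391 on log2(FPKM + 0.1). Changes in the count of the 10 are therefore not read as results about these genes. Leaving out 1 library gave 0 to 1 called genes for ethanol in WT, 0 to 4 for the genotypes on the control diet, 0 to 0 on ethanol, 3 to 6 for ethanol in *Ahr* HKO and 0 to 6 for the interaction. Such fits have fewer livers, and for ethanol in WT they called 367 to 1026 of all tested genes, against 1329 with every library. Under the replicate block the 1 gene called for the genotypes on the control diet was *Sds* (adjusted *P* = 0.0225), while *Hal* (0.0627) and *Nags* (0.0720) were lost. The replicate numbers did not pair the livers (correlations of same-numbered deviations -0.0884 to 0.178).

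Only genes that were not called changed direction. For ethanol in WT, *Asl* turned to -0.072 with quantile-normalized FPKM, *Otc*, *Arg1* and *Slc25a15* to 0.077, 0.015 and 0.086 with log2(FPKM + 1) and to 0.077, 0.015 and 0.087 with log2(FPKM + 0.1), and *Ass1* to -0.25 with *Gm5424*. Between genotypes on ethanol *Slc25a15* and *Hal* turned to -0.058 and -0.0086 with either FPKM pseudocount, and *Cps1* in the interaction to -0.070 with either. Leave-one-out log2 FCs for ethanol in WT ran from -0.18 to 0.20 for *Asl*, -0.054 to 0.24 for *Gls2*, -0.12 to 0.43 for *Hal*, -0.15 to 0.032 for *Otc* and -0.23 to 0.035 for *Slc25a15*, and in the interaction from -0.059 to 0.42 for *Cps1*, -0.31 to 0.052 for *Slc25a15* and -0.67 to 0.060 for *Sds*. *Arg1*, not called with ethanol in *Ahr* HKO, was called with DESeq2 (adjusted *P* = 0.0149), upper-quartile scaling (0.0480) and all 12 libraries in a single fit (0.0456). The cause was not tested. With limma on log2(FPKM + 0.1) the median log2 FC of all genes moved by 0.13 for ethanol in WT, -0.20 for the genotypes on ethanol and -0.21 for the interaction. The share of called genes that were higher then moved from 51.1% to 76.1%, from 64.5% to 21.4% and from 50.2% to 23.1%, and with log2(FPKM + 1) to 80.1%, 15.6% and 23.0%. DESeq2 gave 47.3% between genotypes on ethanol.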

Other observations

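The share of reads on *Ass1*, among those on *Ass1* or *Gm5424*, was 0.0701% to 0.0914% in the 6 livers on the control diet and 0.0921% to 0.123% in the 6 livers on ethanol. The ranges did not overlap, but the 95% intervals of the highest control liver (0.0769% to 0.109%) and the lowest ethanol liver (0.0816% to 0.104%) did. This was noticed after the values were seen and was not tested.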
